A study of Mus musculus with 10 samples.

Results

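The genes described here are 35 transcripts of glucose use and oxygen sensing: the enzymes of glycolysis, the pentose phosphate pathway and glycogen breakdown, the sugar and lactate carriers, and the hypoxia pathway. They were chosen by symbol, and all 35 were found among the 35725 rows of the deposited table. Eosinophils were sorted by flow cytometry out of male mouse lungs, and RNA of P2ry14-null mice gave 5 libraries and that of wild-type C57BL/6J mice (WT) another 5. The product of P2ry14 is a receptor that senses extracellular UDP-glucose and signals through Gi, and the comparison asks how its loss bears on lung eosinophil transcripts in a model of asthma. Mice of both genotypes were sensitized by a pair of oropharyngeal doses a week apart, each of 50 µg ovalbumin with 20 µg of a protease of Aspergillus oryzae. All were exposed to a 1% ovalbumin aerosol 7 days after the last dose, and cells were collected 16 h later. The levels given here are therefore those of challenged lungs in both groups. The labels name the null strain as P2ry14-null alone, without its genetic background, and are silent on whether separate mice gave the libraries. P-values then measure the spread between these libraries, which may be technical.

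Glycolysis splits glucose into pyruvate and yields ATP without oxygen, and lactate dehydrogenase then turns pyruvate into lactate that leaves through a monocarboxylate carrier. The pentose phosphate pathway draws on the same glucose 6-phosphate to make NADPH, which granulocytes spend in their oxidative burst. Under oxygen, prolyl hydroxylases mark the transcription factor subunit HIF-1α, encoded by Hif1a, for destruction by the VHL protein, and in low oxygen it survives and switches on glycolytic and vascular genes. Granulocytes are known for living largely on glycolysis and for keeping glycogen as a reserve.

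Each library held 67.2 to 185 M assigned reads (M, 1e+06). Levels are given as counts per 1e+06 reads (CPM) on library sizes scaled by TMM. The targeted gene P2ry14 stood at 190.4 to 229 CPM in WT and 21.8 to 24.2 CPM in P2ry14-null, in the direction of the labels. Which part of the gene the null allele lacks is not given in the sources used here. All 10 eosinophil markers were detected and summed to a level from 8678 to 9144 CPM in WT and from 8651 to 9291 CPM in P2ry14-null, with Siglecf from 1189 to 1352 CPM. P2ry14-null library 2 stood apart in markers of other lung cells. Its 11 alveolar macrophage markers summed to 2573 CPM, against 1121 to 1370.4 in the other libraries. Its 8 class II antigen presentation markers summed to 438 CPM, against 78.1 to 148. This library held the highest value of 0 of the 35 genes, against 11.6% of all tested genes. It held the lowest value of 3 (8.57%), against 7.81%. The part of other cells in the levels of the 35 genes was not tested.

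No gene of glucose use or oxygen sensing passed the test between genotypes. All 35 were tested, 22 lay below 0 and 13 above it on the log2 fold change scale (P2ry14-null minus WT), and their median was -0.029. Over all 15586 tested genes, 48.8% lay below 0 and the median was 0.0025. The edgeR quasi-likelihood test with Benjamini-Hochberg adjustment over all tested genes called 0 of the 35 at the threshold of 0.05, where it called 6 of 15586 genes (0.0385%), with 0.0257% lower and 0.0128% higher in P2ry14-null. DESeq2 also called 0 of the 35. At an unadjusted p under 0.05, edgeR gave 2 of the 35 (5.71%), against 4.13% of all tested genes, and DESeq2 gave 3. Those in edgeR were Slc2a1, lower in P2ry14-null (2.67% of all tested genes were), and Egln1, higher (1.46%). For each of the 35 the edgeR adjusted p was 0.999. In 0 of the 35 did the P2ry14-null and WT libraries separate without overlap, as 0.648% of all tested genes did (0.359% lower and 0.289% higher in P2ry14-null). In sorted bulk RNA, fewer cells of a kind and less RNA per cell cannot be told apart.

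Most fitted intervals of the differences were narrow. They rest on the spread between these libraries, which may be technical, and each holds for its own gene, not for all jointly. The fitted 95% interval of the log2 fold change lay between -0.3 and 0.3 (a 1.23-fold change) for 31 of the 35 genes, and between -0.6 and 0.6 for 34. The 4 with wider intervals were the transporter Slc2a6, the muscle phosphofructokinase Pfkm, the vascular growth factor Vegfa and Ankrd37, and Ankrd37 alone reached past 0.6 in size. The median SE of the 35 was 0.061, against 0.089 over all tested genes. Reads of the 35 genes made up 1.27% ± 0.0539 of all reads in WT and 1.26% ± 0.0322 in P2ry14-null (SD, n = 5 each).

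**Figure D1:**
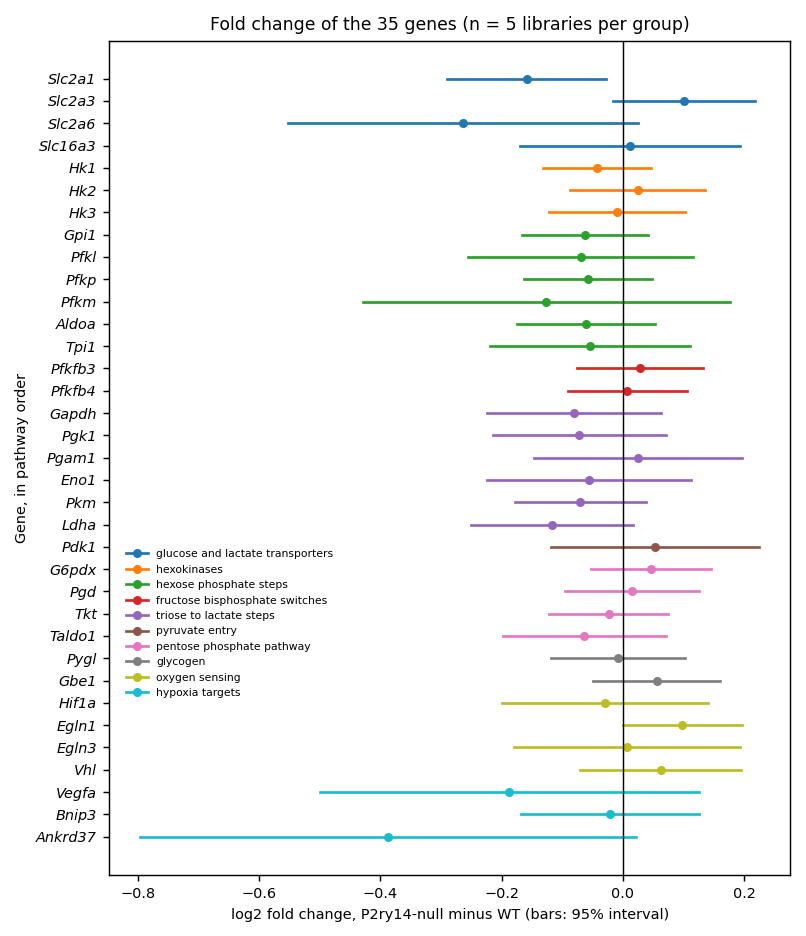
Log2 fold change of the 35 genes, P2ry14-null minus WT, in pathway order and coloured by role; points are fitted values and bars their 95% intervals (n = 5 libraries per group). The intervals of Slc2a1 and Egln1 leave out 0 before adjustment, and Ankrd37 and Vegfa have the widest intervals among the hypoxia targets.

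Scaled by exon length, the levels of the 35 genes spanned a 2683-fold range. Aldoa (aldolase A, which splits fructose bisphosphate) was highest at 859 CPM per kb over the 10 libraries. Next came Taldo1 (transaldolase of the pentose phosphate pathway) at 796 and Pygl (the liver-type glycogen phosphorylase) at 697 CPM per kb. By length-scaled level these stood at ranks 42, 51 and 57 of 14186 tested genes with an annotated length. The ranges of Aldoa and Taldo1 over libraries overlapped, as did those of Taldo1 and Pygl. Pygl lay above the next gene, Pkm (pyruvate kinase, 378 CPM per kb), in every library. At the other end stood Pfkm at 0.320 CPM per kb, below Slc2a6 at 1.90 and Pdk1 at 1.98. Of 34 neighbouring pairs in this order, 22 overlapped in their ranges over the 10 libraries.

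**Figure D2:**
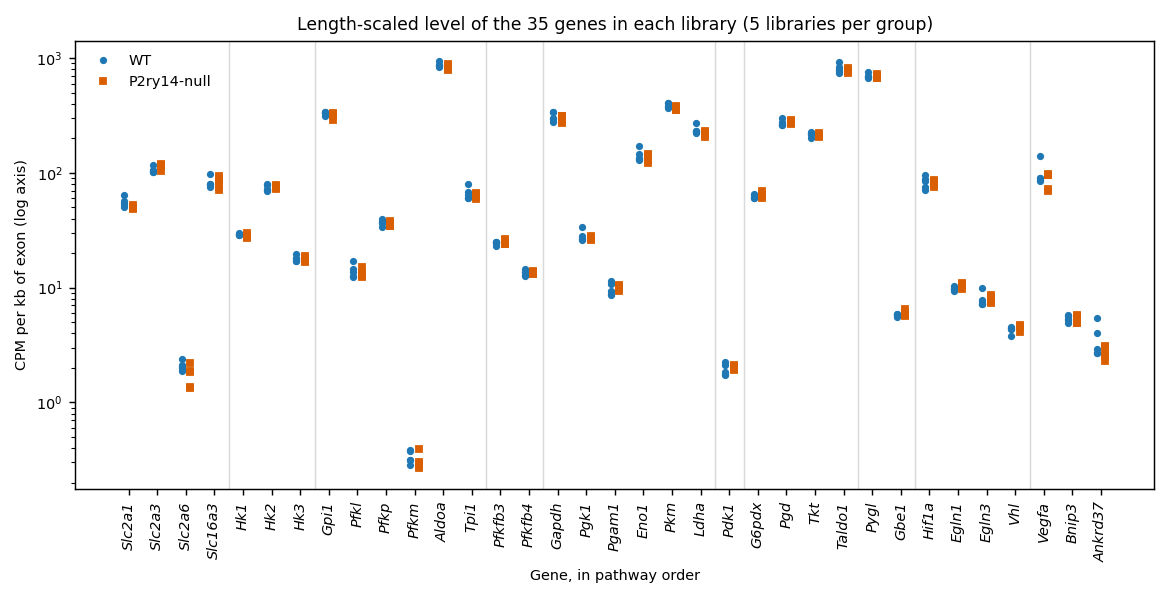
Level of each of the 35 genes in CPM per kb of exon (log axis), in pathway order, with 1 point per library (WT circles, P2ry14-null squares; grey lines part the roles). Aldoa, Taldo1 and Pygl lie highest and Pfkm lowest, and the groups overlap at every gene.

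Levels of several glycolytic enzymes are uncertain as single genes, because near-identical copies exist elsewhere in the genome and how multi-mapped reads were counted is unknown. The share of a gene's 50-base stretches that also occur in an annotated transcript of another gene was 68.0% for Pgk1, 58.4% for Gapdh, 49.5% for Eno1 and 41.5% for Pgam1. It was 23.7% for Pkm, 20.7% for Bnip3 and 18.6% for Gpi1, and 0 for Hk1, Hk2, Hk3, Pgd, Tkt, Slc2a1 and Slc2a3. Not all of the Pkm share is from copies elsewhere. Of its 940 shared stretches, 240 occur in Gm49759, a gene that overlaps 12.9% of the Pkm exon bases on the same strand. Overlap with a gene on the opposite strand touched 27.2% of the exon bases of Bnip3 and 17.4% of Pfkp. For Ankrd37 it was 20.1% with Lrp2bp and 6.15% with Ufsp2. The strand setting of the counting is unknown too.

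Promoter windows were searched for ACGTG and GCGTG on both strands, the core letters to which HIF-1 is known to bind (CACGTG, an E-box, holds ACGTG on each strand). RefSeq windows of GRCm38.p6, 250 bases before to 50 after a start, were found for 34 of the 35 genes. A match stood in at least 1 window of 30 of the 34 (88.2%), against 46.7% of all 27025 genes with a window and 63.1% of 11928 tested genes. A gene with more windows has more chances of a match. Counted by window, 37 of 48 (77.1%) held a match, against 43.8% of all windows and 57.5% of those of tested genes. The matches hold a CG pair, and the median window held 20.5 CG pairs among these genes, 18 among tested genes and 7 among all. A match is a description of letters, not a site shown to be bound. The 6 stretches printed are those of carriers, enzymes and targets known to be induced by hypoxia. They end at or before the base ahead of the start, leave out annotated exons, run 5′ to 3′ on the gene's strand, and show matches on either strand in capitals.
Slc2a1, chr4:119108565-119108710, plus strand: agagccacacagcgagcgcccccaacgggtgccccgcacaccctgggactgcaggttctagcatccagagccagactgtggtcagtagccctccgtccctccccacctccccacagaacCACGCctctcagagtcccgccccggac
Slc16a3, chr11:120948887-120949066, plus strand: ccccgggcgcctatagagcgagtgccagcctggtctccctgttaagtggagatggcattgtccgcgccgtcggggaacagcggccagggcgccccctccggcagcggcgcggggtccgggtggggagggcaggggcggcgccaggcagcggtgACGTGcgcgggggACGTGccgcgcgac
Ldha, chr7:46845624-46845803, plus strand: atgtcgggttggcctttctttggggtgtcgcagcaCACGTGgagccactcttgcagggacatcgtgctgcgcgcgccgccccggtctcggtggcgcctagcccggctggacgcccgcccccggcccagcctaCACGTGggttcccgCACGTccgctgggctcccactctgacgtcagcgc
Pgk1, chrX:106186920-106187099, plus strand: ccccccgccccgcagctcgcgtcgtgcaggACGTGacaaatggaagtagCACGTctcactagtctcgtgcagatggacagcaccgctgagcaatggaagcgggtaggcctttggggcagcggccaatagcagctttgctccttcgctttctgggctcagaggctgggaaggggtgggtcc
Ankrd37, chr8:45999868-46000030, minus strand: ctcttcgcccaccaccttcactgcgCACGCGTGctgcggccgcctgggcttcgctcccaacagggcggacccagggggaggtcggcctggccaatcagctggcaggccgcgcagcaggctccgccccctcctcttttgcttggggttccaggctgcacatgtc
Bnip3, chr7:138909507-138909686, minus strand: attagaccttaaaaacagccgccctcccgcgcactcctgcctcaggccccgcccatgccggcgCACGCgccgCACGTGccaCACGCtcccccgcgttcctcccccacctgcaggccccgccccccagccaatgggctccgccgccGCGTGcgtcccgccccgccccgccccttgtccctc
Since each CACGTG counts on both strands, the stretches hold 1 (Slc2a1), 2 (Slc16a3), 5 (Ldha), 2 (Pgk1), 2 (Ankrd37) and 5 (Bnip3) matches.

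Glucose enters through the facilitative carriers Slc2a1 (GLUT1) and Slc2a3 (GLUT3), and lactate leaves through Slc16a3 (MCT4). Slc2a3, the high-affinity carrier of neurons and leukocytes (chromosome 6, 122727809 to 122802274, minus strand, gene ID 20527, mm10), had 419.5, 409, 407, 465 and 402 CPM in WT libraries 1 to 5 and 455, 414, 472, 450.1 and 464 CPM in P2ry14-null libraries 1 to 5. Slc2a1, a carrier of many dividing cells (chromosome 4, 119108745 to 119137330, plus strand, gene ID 20525), had 209, 178, 166, 185 and 170.2 CPM in WT libraries 1 to 5. In P2ry14-null libraries 1 to 5 it had 165, 161, 170.0, 157 and 161 CPM. P2ry14-null library 3 lay inside the WT range of Slc2a1 and the other 4 lay below it. The log2 fold change was -0.16 ± 0.060 (SE; 95% interval -0.29 to -0.028) for Slc2a1, with an unadjusted edgeR p of 0.021 and an adjusted p of 0.999. For Slc2a3 the sign was the opposite, at 420.5 ± 25.8 CPM in WT and 451 ± 22.3 CPM in P2ry14-null (SD, n = 5 each), and it did not pass either.

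Within each library, Slc2a1 was also set against Slc2a3. Slc2a1 reads amounted to 49.8%, 43.4%, 40.7%, 39.8% and 42.4% of Slc2a3 reads in WT libraries 1 to 5. The same ratio was 36.3%, 38.9%, 36.0%, 34.8% and 34.6% in P2ry14-null libraries 1 to 5. The means were 43.2% ± 3.93 and 36.1% ± 1.71 (SD, n = 5 each), and every P2ry14-null library lay below every WT library. This ratio within a library does not depend on the scaling of libraries. It is given without a test, since it is 1 of 595 ratios between pairs of the 35 genes, of which 8 (1.34%) did not overlap between genotypes. Over all pairs of the 15554 tested genes with reads in every library the share was 0.701%, and pairs that hold the same gene are not independent. Slc2a1 was part of 5 of those 8, paired with Slc2a3, Pgam1, Pkm, Pdk1 and Pgd. Without WT library 1, the log2 fold change of Slc2a1 was -0.10, against -0.16 with all libraries.

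**Figure D3:**
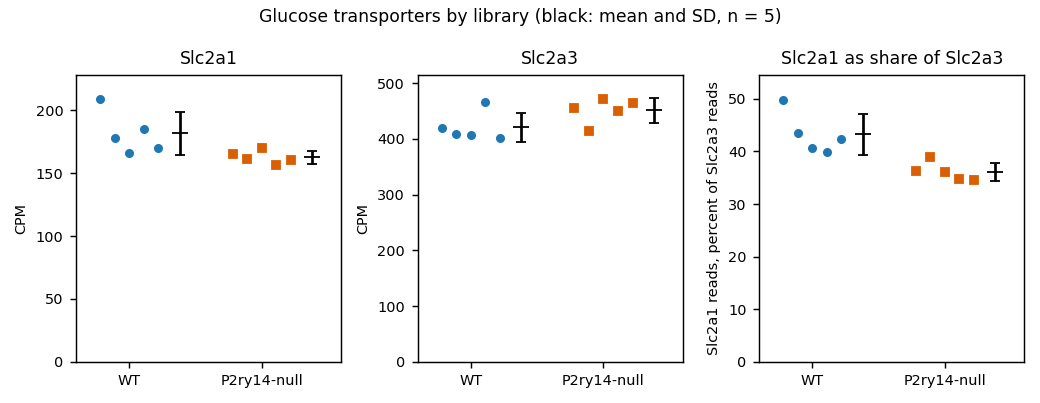
CPM of Slc2a1 and of Slc2a3, and Slc2a1 reads as a percent of Slc2a3 reads, with 1 point per library (WT circles, P2ry14-null squares) and the mean and SD of each group in black (n = 5 each). The ratio lies from 39.8% to 49.8% in WT and from 34.6% to 38.9% in P2ry14-null.

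Slc2a6, a carrier of lysosomal membranes, was scarce, with 4.54, 3.99, 4.32, 5.07 and 4.25 CPM in WT libraries 1 to 5 and 2.93, 4.72, 2.83, 3.99 and 3.95 CPM in P2ry14-null libraries 1 to 5. P2ry14-null library 2 lay inside the WT range and the other 4 at or below its lower end, and the log2 fold change was -0.26 ± 0.13 (SE; 95% interval -0.55 to 0.025). It was -0.17 without P2ry14-null library 3 and -0.37 without library 2. Slc16a3 had 354, 356, 350.2, 432 and 337 CPM in WT libraries 1 to 5 and 391, 316, 414, 386 and 338 CPM in P2ry14-null libraries 1 to 5. WT library 4 lay highest and P2ry14-null library 2 lowest in Slc16a3, so the groups overlapped widely (366 ± 37.7 CPM in WT and 369 ± 40.6 CPM in P2ry14-null; SD, n = 5 each).

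Hexokinases trap glucose as glucose 6-phosphate, and Hk2, an inducible form bound to mitochondria, was the leading transcript. Of the length-scaled hexokinase level, Hk2 made up 61.1% ± 1.58 in WT and 62.0% ± 1.30 in P2ry14-null (SD, n = 5 each). Hk1, the widely expressed form, made up 24.2% ± 0.860 in WT and 23.4% ± 0.634 in P2ry14-null, and Hk3, a form of myeloid cells, 14.8% ± 0.954 in WT and 14.6% ± 0.894 in P2ry14-null. By library, Hk2 had 388, 409.9, 442, 394 and 446 CPM in WT libraries 1 to 5 and 427, 410.4, 441, 409 and 429 CPM in P2ry14-null libraries 1 to 5. Hk1 was among the steadiest of all 35 genes, with 139, 142, 139.6, 143 and 146 CPM in WT libraries 1 to 5 and 146, 138, 139, 135 and 132 CPM in P2ry14-null libraries 1 to 5. Log2 fold changes were -0.043 ± 0.041 for Hk1 and 0.025 ± 0.052 for Hk2 (SE), and Hk3 ranged from 55.6 to 65.7 CPM. The order Hk2, Hk1, Hk3 held in all 10 libraries.

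Phosphofructokinase commits sugar phosphate to glycolysis, and its platelet-type subunit Pfkp prevailed. Pfkp made up 72.1% ± 3.41 in WT and 72.3% ± 0.907 in P2ry14-null of the length-scaled level of the 3 subunits, the liver-type Pfkl 27.3% ± 3.41 in WT and 27.1% ± 0.941 in P2ry14-null, and the muscle-type Pfkm 0.650% ± 0.0760 in WT and 0.624% ± 0.118 in P2ry14-null (SD, n = 5 each). Pfkp had 146, 158, 160.0, 169.9 and 162 CPM in WT libraries 1 to 5 and 148, 156, 162, 149 and 149.7 CPM in P2ry14-null libraries 1 to 5. In Pfkl, WT library 1 stood highest at 63.4 CPM, and the other 9 libraries lay from 46.0 to 56.9 CPM. The enzymes Pfkfb3 and Pfkfb4 make and remove the fructose bisphosphate signal that drives phosphofructokinase. Pfkfb3 had 136, 126, 138, 139 and 138 CPM in WT libraries 1 to 5 and 133, 134, 147, 145 and 132 CPM in P2ry14-null libraries 1 to 5. Pfkfb4 had 45.2, 47.6, 44.4, 50.7 and 47.3 CPM in WT libraries 1 to 5 and 47.7, 48.7, 45.9, 45.9 and 48.2 CPM in P2ry14-null libraries 1 to 5. Neither gene separated the groups, with log2 fold changes of 0.028 ± 0.048 and 0.0074 ± 0.045 (SE).

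All 6 genes of the hexose phosphate steps (Gpi1, Pfkl, Pfkp, Pfkm, Aldoa and Tpi1) lay below 0, as 48.8% of all tested genes did. Their log2 fold changes ran from -0.13 to -0.054, and the signs are not independent, since the genes share their libraries. After adjustment 0 of the 6 passed (edgeR adjusted p = 0.999 for each), against 0.0385% of all tested genes. Without WT library 1, 4 of the 6 lay below 0, with Pfkl at 0.0093 and Tpi1 at 0.024. Gpi1, which turns glucose 6-phosphate into fructose 6-phosphate, had 969.7, 967, 912, 974 and 964 CPM in WT libraries 1 to 5 and 946, 919, 956, 924 and 839.9 CPM in P2ry14-null libraries 1 to 5. WT library 3 lay inside the P2ry14-null range and the other WT libraries above it, and the log2 fold change was -0.062 ± 0.048 (SE; 95% interval -0.17 to 0.041), or -0.031 without P2ry14-null library 5. Aldoa ranged from 1424 to 1718 CPM and Tpi1, triose phosphate isomerase, from 105 to 142 CPM, with the highest value of each in WT library 1.

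Of the 6 genes from triose phosphate to lactate, 5 lay below 0 (48.8% of all tested genes did) and Pgam1 lay above it. After adjustment 0 of the 6 passed (edgeR adjusted p = 0.999 for each). Without WT library 1, 4 of the 6 lay below 0, with Eno1 at 0.017 and Pgk1 at -0.00068. Without WT library 3 or 5, all 6 did. Ldha, the muscle-type subunit of lactate dehydrogenase (chromosome 7, 46845804 to 46855627, plus strand, gene ID 16828), had 519.5, 439, 425, 442 and 428 CPM in WT libraries 1 to 5 and 435, 416, 434, 405 and 386 CPM in P2ry14-null libraries 1 to 5. WT library 1 stood 1.20-fold above the mean of the other WT libraries (433 ± 8.37 CPM), and those 4 overlapped the P2ry14-null libraries. The log2 fold change of Ldha was -0.12 ± 0.062 (SE; 95% interval -0.25 to 0.017), and without WT library 1 it was -0.060. The promoter stretch of Ldha printed above holds the CACGTG letters. They stood in a window of 5 of the 34 genes with windows (14.7%), against 11.1% of tested genes. Any bearing on the level of Ldha was not tested. Pkm had 1065, 991, 947, 1054 and 974 CPM in WT libraries 1 to 5 and 999, 973, 983, 914 and 923 CPM in P2ry14-null libraries 1 to 5, with a log2 fold change of -0.070 ± 0.050 (SE; 95% interval -0.18 to 0.039). Gapdh, the redox step, ranged from 404 to 509.6 CPM, and enolase Eno1 from 312 to 434 CPM. Pgk1, the first step to form ATP, ranged from 47.4 to 61.7 CPM, and the mutase Pgam1 from 15.2 to 20.3 CPM. Pdk1, the kinase that holds pyruvate back from the mitochondria, had 11.7, 8.94, 9.14, 11.0 and 9.55 CPM in WT libraries 1 to 5 and 10.1, 11.0, 10.7, 9.999 and 10.4 CPM in P2ry14-null libraries 1 to 5. The groups overlapped in Pdk1 (log2 fold change 0.053 ± 0.080, SE).

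None of the pentose phosphate and glycogen genes separated the genotypes. G6pdx, glucose 6-phosphate dehydrogenase and the entry step to NADPH, had 169, 162, 160.1, 161 and 172 CPM in WT libraries 1 to 5 and 184, 172, 162, 168 and 166 CPM in P2ry14-null libraries 1 to 5. Taldo1 had 1262, 1148, 1003, 1093 and 1044 CPM in WT libraries 1 to 5 and 1115, 1043, 1057, 1081 and 1016 CPM in P2ry14-null libraries 1 to 5. Log2 fold changes were 0.047 ± 0.046 for G6pdx and -0.063 ± 0.062 for Taldo1 (SE), 2 of the 4 genes lay on each side of 0, and 0 passed. Taldo1 was at -0.013 without WT library 1 and G6pdx at 0.016 without P2ry14-null library 1. Pgd, at 0.015 with all libraries, turned below 0 without WT library 3 or P2ry14-null library 1. Pgd, which makes further NADPH, ranged from 583 to 669 CPM, and the transketolase Tkt from 652 to 726 CPM. Pygl, which frees glucose phosphate from glycogen (chromosome 12, 70190815 to 70227683, minus strand, gene ID 110095), had 2546, 2276, 2281, 2331 and 2255 CPM in WT libraries 1 to 5 and 2449, 2254, 2333, 2354 and 2233 CPM in P2ry14-null libraries 1 to 5. Its means were 2338 ± 119.7 CPM in WT and 2325 ± 86.4 CPM in P2ry14-null (SD, n = 5 each), and the log2 fold change was -0.0082 ± 0.051 (SE; 95% interval -0.12 to 0.10). Gbe1, the glycogen branching enzyme, had 25.3, 23.7, 24.6, 25.4 and 24.6 CPM in WT libraries 1 to 5 and 28.0, 24.6, 24.4, 26.4 and 25.2 CPM in P2ry14-null libraries 1 to 5. Its libraries overlapped between genotypes, with a log2 fold change of 0.056 ± 0.049 (SE).

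Among the genes of the oxygen-sensing pathway (Hif1a, Egln1, Egln3 and Vhl), Hif1a was the most abundant transcript by length-scaled level, at 82.3 CPM per kb. The prolyl hydroxylases followed at 10.1 for Egln1 (PHD2) and 7.93 for Egln3 (PHD3), and Vhl at 4.42. Egln1, the main oxygen sensor of most cells (chromosome 8, 124908586 to 124949319, minus strand, gene ID 112405), had 36.8, 34.7, 34.9, 34.9 and 33.8 CPM in WT libraries 1 to 5 and 34.7, 37.3, 39.5, 38.4 and 37.3 CPM in P2ry14-null libraries 1 to 5. P2ry14-null library 1 lay inside the WT range, the other 4 above it, and the log2 fold change was 0.10 ± 0.045 (SE; 95% interval 0.00059 to 0.20). Its unadjusted edgeR p was 0.049 and its adjusted p 0.999. Vhl had 12.3, 12.7, 12.5, 10.7 and 12.2 CPM in WT libraries 1 to 5 and 13.0, 12.7, 11.6, 13.2 and 12.6 CPM in P2ry14-null libraries 1 to 5. WT library 4 lay lowest, and the log2 fold change was 0.062 ± 0.061 (SE). Hif1a ranged from 385 to 525 CPM and Egln3 from 19.2 to 26.2 CPM. Egln1 made up 55.3% ± 2.62 in WT and 56.7% ± 2.71 in P2ry14-null of the length-scaled sum of Egln1 and Egln3 (SD, n = 5 each).

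Vegfa and Ankrd37 had the widest relative spread over the 10 libraries among the 35 genes. Vegfa, the vascular endothelial growth factor (chromosome 17, 46016993 to 46032377, minus strand, gene ID 22339), had 315, 319, 303, 492 and 299 CPM in WT libraries 1 to 5 and 341, 247, 338, 339 and 253 CPM in P2ry14-null libraries 1 to 5. WT library 4 stood 1.59-fold above the mean of the other WT libraries (309 ± 9.29 CPM), and P2ry14-null libraries 2 and 5 lay lowest. The log2 fold change was -0.19 ± 0.14 (SE; 95% interval -0.50 to 0.13), and without WT library 4 it was -0.020. Ankrd37, a small ankyrin repeat gene induced by HIF-1 (chromosome 8, 45996902 to 46000823, minus strand, gene ID 654824), had 3.70, 2.69, 2.50, 5.06 and 2.48 CPM in WT libraries 1 to 5 and 2.89, 2.43, 2.80, 2.36 and 2.12 CPM in P2ry14-null libraries 1 to 5. WT library 4 again stood highest, 1.78-fold above the other WT libraries, with WT library 1 next. Its log2 fold change was -0.39 ± 0.19 (SE; 95% interval -0.80 to 0.022), and without WT library 4 it was -0.17. These counts were low, from 195 to 791 reads per library. Bnip3, a mitochondrial protein of mitophagy, ranged narrowly from 9.06 to 10.8 CPM, with the lowest value in P2ry14-null library 2 and WT library 4 next to it.

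**Figure D4:**
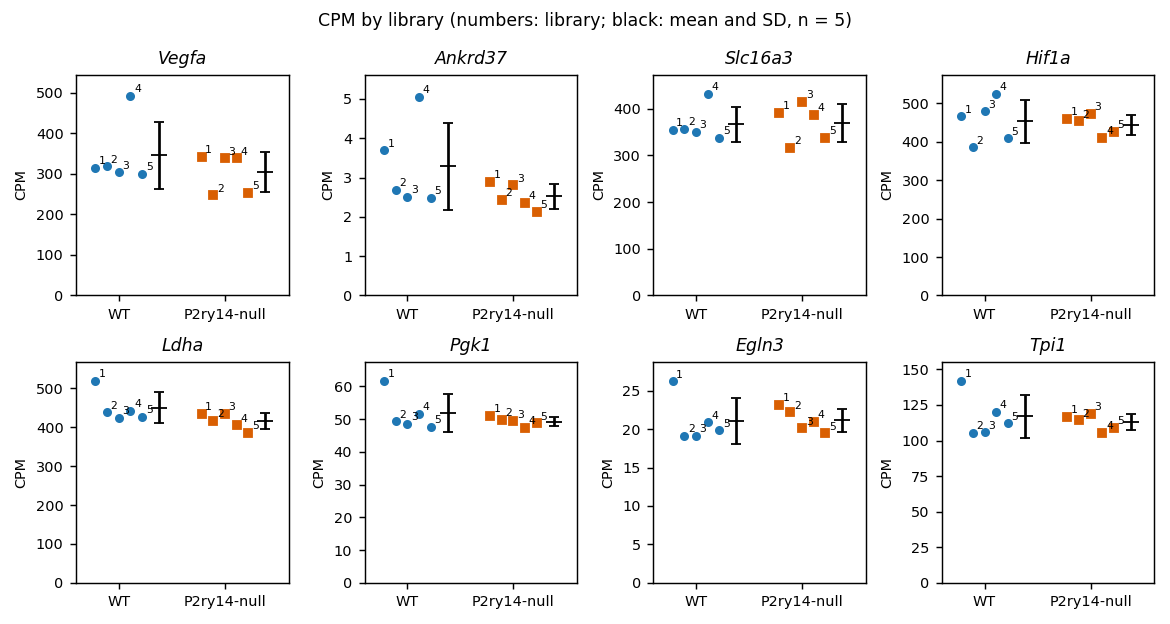
CPM by library for 8 genes (numbers name the library; black marks the mean and SD, n = 5 each). WT library 4 lies highest in Vegfa, Ankrd37, Slc16a3 and Hif1a, and WT library 1 in Ldha, Pgk1, Egln3 and Tpi1.

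The highest values clustered in WT libraries 1 and 4. WT library 1 held the highest value of 15 of the 35 genes (42.9%), against 18.5% of all tested genes, and WT library 4 that of 9 (25.7%), against 12.5%. The genes highest in WT library 1 included 5 of the 6 from triose phosphate to lactate and 3 of the 4 pentose phosphate genes. In that library Pgk1 stood 1.25-fold, Eno1 1.26-fold, Tpi1 1.28-fold and Egln3 1.33-fold above the mean of the other WT libraries. WT library 4 held the highest value of Slc2a6, Slc16a3, Gpi1, Pfkp, Pfkfb4, Gapdh, Hif1a, Vegfa and Ankrd37. A gene has only 1 highest library, so these sets could not overlap. In log2 CPM, WT library 1 lay above the gene mean over the 10 libraries in 24 of the 35 genes. WT library 4 did so in 29, P2ry14-null library 1 in 27 and the other libraries in 7 to 20. P2ry14-null library 4 held the lowest value of 8 genes (22.9%), against 7.46% of all tested genes. Without WT library 1, 19 of the 35 genes lay below 0, with a median of -0.0042, and without WT library 4 they were 21, with a median of -0.020.

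Heat shock transcripts were also highest in WT libraries 1 and 4, and their mean level differed between the genotypes. Over 5 heat shock genes, among them Dnajb1 and Hsp90aa1, the mean log2 CPM was 5.54 in WT library 1 and 5.50 in WT library 4, the highest of the 10, and 4.04 to 5.18 in the other 8. P2ry14-null library 1, at 4.21, lay above the gene mean in 27 of the 35 genes, and WT library 3, at 5.18, lay below it in 28. P2ry14-null library 5, the lowest at 4.04, lay below the gene mean in 26. By group, the mean log2 CPM was 5.30 ± 0.199 in WT and 4.53 ± 0.461 in P2ry14-null (SD, n = 5 each). The 5 heat shock genes summed to between 673 and 928 CPM in WT and between 372 and 815 CPM in P2ry14-null. All 5 lay below 0 with an unadjusted edgeR p under 0.05, as 2.67% of all tested genes did. After adjustment 0 of 5 passed, against 0.0385% of all tested genes. The part of the heat shock genes in the values above was not tested. Mast cell and basophil markers, of which 6 of 8 passed the low-count filter and none was at 0 in all libraries, summed from 51.7 to 71.0 CPM in WT and from 35.4 to 50.0 CPM in P2ry14-null. Neutrophil markers summed from 3701 to 4641 CPM in WT and from 3697 to 5397 CPM in P2ry14-null, nearly all of it Retnlg. S100a8 stayed at or below 4.65 CPM, Mpo at or below 0.0476, and Elane at 0 reads in every library. All 6 tested mast cell and basophil markers lay below 0, and 7 of the 8 tested neutrophil markers lay above it. At an unadjusted edgeR p under 0.05 there were 2 and 3 of these, against 4.13% of all tested genes. After adjustment 0 passed in either list, against 0.0385%. Any bearing on the 35 genes was not tested.

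**Figure D5:**
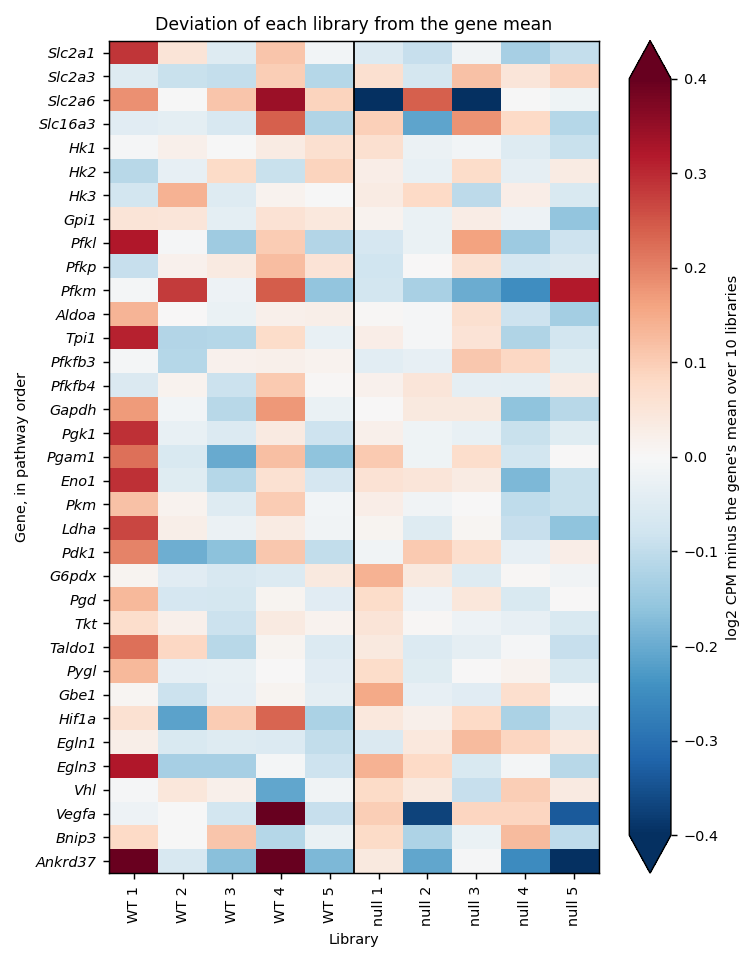
Log2 CPM of each gene minus its mean over the 10 libraries, with genes in pathway order and libraries in columns (WT left of the line, P2ry14-null right of it); colours end at -0.4 and 0.4, and stronger deviations share the end colours. WT library 1 is high along the lower glycolytic genes and WT library 4 in Vegfa, Ankrd37, Slc16a3 and Hif1a.

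Other genes of these pathways gave a similar picture. Of 29 further glycolysis and pyruvate genes, 25 were tested, 11 lay below and 14 above 0, and 0 passed. Adpgk, an ADP-dependent glucokinase, had the smallest p among them, with 248, 279, 307, 285 and 306 CPM in WT libraries 1 to 5 and 356, 308, 278, 421 and 319.9 CPM in P2ry14-null libraries 1 to 5. P2ry14-null library 4 stood highest, library 3 lay inside the WT range, and the log2 fold change was 0.24 ± 0.10 (SE), with an unadjusted edgeR p of 0.031 and an adjusted p of 0.999. Slc16a7, a second monocarboxylate carrier, followed at 0.14 ± 0.067 (14.8 ± 1.39 CPM in WT and 16.3 ± 0.817 CPM in P2ry14-null; SD, n = 5 each). All 9 further pentose phosphate genes were tested, 5 below and 4 above 0, and 14 of 15 further glycogen genes, 8 below and 6 above, with 0 passing in either list. In these lists Prps2 and Gyg had the smallest p, with log2 fold changes of 0.17 ± 0.083 and -0.069 ± 0.050 (SE).

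Of the 25 rows of 24 further hypoxia genes, 19 were tested, 11 below and 8 above 0, and 0 passed. Ddit4, an inhibitor of mTOR signalling that hypoxia and other stresses induce, had 108, 97.1, 114, 119.8 and 111 CPM in WT libraries 1 to 5 and 97.2, 87.9, 103, 85.8 and 82.4 CPM in P2ry14-null libraries 1 to 5. P2ry14-null libraries 1 and 3 lay inside the WT range and the other 3 below it. The log2 fold change was -0.27 ± 0.071 (SE), with an unadjusted edgeR p of 0.0021 and an adjusted p of 0.999. Ero1l, an oxidase of protein folding, stood at 90.3 ± 6.50 CPM in WT and 83.4 ± 2.99 CPM in P2ry14-null (SD, n = 5 each) and a log2 fold change of -0.12 ± 0.053. At an unadjusted p under 0.05 there were 2 of the 19 hypoxia genes, 1 of the 25 glycolysis and pyruvate genes and 0 of the 23 others, beside 4.13% of all tested genes.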

How the data were processed

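The authors deposited a table of gene-level read counts, as whole numbers, whose 10 columns bear the sample titles. STAR 2.5, Subread, featureCounts 1.5.0-p1, DESeq2 and mm10 are named per the submitters' processing notes. The annotation release, strand setting and counting of multi-mapped reads are not stated there. RNA was TRIzol-extracted, DNase-treated and made into TruSeq libraries, per the labels' protocols.

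Counts of all 10 libraries were tested with edgeR 4.0.16 (R 4.3.3), using TMM, filterByExpr and a genotype term alone, and adjusted by Benjamini-Hochberg over 15586 genes. SE was the log2 fold change over the root of F, and intervals use the fitted degrees of freedom. Lengths are exon unions of GENCODE vM21 basic on GRCm38, found for 91% of tested genes and for all 35. The script was tested on simulated data. Within groups, chi-square tests gave at least 22.2 per gene, so each library counted once. Same-numbered libraries correlated from -0.137 to 0.126 in their deviations, so the number was used as a block only in an alternative.

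The genes and lists were chosen with earlier results of these data known. Each role's 2 genes with the smallest p received full statistics; Slc2a3, Slc16a3 and those described for WT libraries 1 and 4 were added after their values were seen. Alternatives were RLE and upper quartile factors, no low-count filter, DESeq2 1.42.0, the replicate block and leaving out each library.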

Additional observations from a re-analysis of the deposited data

Results flagged for a closer look

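In each group of 5 libraries, the highest and lowest value of each of the 35 genes was compared with its nearest neighbour by Dixon's test at 95%. Of 70 groups, 11 held a library that stood apart, where chance flags about 1 in 20 groups, or 3.5 of 70. The genes share their libraries, so these are not independent. Among the 11, 4 were WT library 1, standing high: 61.7 CPM of Pgk1, 519.5 CPM of Ldha, 2546 CPM of Pygl and 26.2 CPM of Egln3. Another 4 were WT library 4, standing high with 465 CPM of Slc2a3, 432 CPM of Slc16a3 and 492 CPM of Vegfa, and low with 10.7 CPM of Vhl. WT library 3 stood low with 912 CPM of Gpi1, and WT library 2 with 126 CPM of Pfkfb3. In P2ry14-null, library 5 stood high with 1.19 CPM of Pfkm.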

How the results depend on the processing

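None of the 35 genes passed in any of the 15 alternatives run (RLE factors, upper quartile factors, no low-count filter, DESeq2, the replicate block and 10 fits without 1 library), and the smallest adjusted p among them was 0.442, without WT library 3. Over all genes, edgeR called 6 and DESeq2 18, and fits without 1 library called 3 to 5. Under a replicate block, edgeR called 6 genes and 0 of the 35, 22 of which lay below 0 with a median of -0.0232. Without single libraries, 19 to 26 lay below 0 and their median ran from -0.0469 to -0.00415. Without single libraries, 12 of the 35 changed sign in at least 1 fit: Bnip3, Egln3, Eno1, Hif1a, Hk3, Pfkfb4, Pfkl, Pgam1, Pgd, Pygl, Slc16a3 and Tpi1. Pfkl, Tpi1 and Eno1 did so without WT library 1 alone and reached 0.0093, 0.0236 and 0.0168, and Hif1a without WT library 4 alone, reaching 0.0352. Without the low-count filter Egln3 was at -0.00327 and Pfkfb4 at -0.00341. Pfkfb4 ran from -0.0127 to 0.0419 without single libraries and Pygl from -0.0279 to 0.0241, and the cause was not tested. Slc2a6 ran from -0.367 to -0.172, Slc2a1 from -0.19 to -0.103, Vegfa from -0.235 to -0.0201 and Ankrd37 from -0.473 to -0.171. RLE factors moved no mean level by more than 0.0168%. Depth limits Pfkm most, with 61 to 185 reads per library.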

Other observations

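Reads were also assigned to Ldhc, the lactate dehydrogenase subunit known from testis, at 28.6 to 36.6 CPM in WT and 29.9 to 33.2 CPM in P2ry14-null. Scaled by exon length this was 23.6 CPM per kb, against 0.648 for the heart-type subunit Ldhb and 229 for Ldha. Ldhc (chromosome 7, 46861263 to 46878142, plus strand) starts 5.64 kb past the end of Ldha on the same strand, and gene-level counts do not locate its reads. Its groups overlapped (log2 fold change -0.076 ± 0.068, SE).

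The ADP-dependent kinase Adpgk had a higher length-scaled level (125 CPM per kb over all libraries) than Hk2 (74.7). Of the pyruvate dehydrogenase kinases, Pdk3 stood at 23.2 CPM per kb, Pdk2 at 3.98 and Pdk1 at 1.98, while Pdk4 did not pass the low-count filter. Ugp2, the enzyme that makes UDP-glucose, the ligand of the receptor deleted here, stood at 103 ± 8.63 CPM in WT and 104 ± 3.97 CPM in P2ry14-null (SD, n = 5 each), with a log2 fold change of 0.0066 ± 0.057 (SE). The choice of these genes followed a look at their values.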
